A study of Rattus norvegicus with 4 samples.

Results

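The nuclear receptor genes encode transcription factors that are switched by small fat-soluble ligands, or that act without a known ligand, and they were described here in colon tissue of rats. The list held 40 genes, and a gene was taken when the RefSeq accession of a row of the deposited table mapped to its symbol and the row had a value on every array. By this rule 27 genes were measured, 1 row per gene, among 6963 named genes and 18350 measured rows in all. Of the other 13 genes, 5 had rows that were blank on all arrays (Esr2, Pgr, Esrrb, Nr0b1 and Nr4a3), and Rarb, Rarg, Rora, Rorb, Nr2e3, Nr5a1, Nr6a1 and Hnf4g had no row under their name and were not analysed here. Nr1d1, Nr1d2 and the receptors of glucocorticoids and of vitamin D were not on the list and are given below only as companions.

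Gene expression was measured with one-color NimbleGen arrays in colon tissue of 2 control rats and 2 rats of the mesenchymal stem cell transplantation (MSCT) group, with 1 array per rat. All animals were male Sprague Dawley rats, and their age is not given in the sources used here. MSCT rats received the hapten TNBS in ethanol by the rectum, which causes colitis, and on the next day a tail vein transfusion of mesenchymal stem cells that carried green fluorescent protein. The sample descriptions call the control animals normal rats, whereas the methods and the series text speak of IBD control rats, so it is not settled whether the comparison also holds the effect of colitis, and the sources differ on the day of sampling. Every value is an intensity per transcript, and the groups were compared on the log2 scale with limma, whose linear model moderates each row's variance with that of the other rows. A screen with the limits of the methods, an unadjusted p under 0.05 together with a change of more than 2-fold, was applied throughout. Its p-values were those of limma unless another test is named, and by an ordinary t-test fewer rows passed it, as given below. P-values were also adjusted over all 18350 rows by the Benjamini-Hochberg method. With 2 arrays in each group, the smallest two-sided p of an exact permutation test is 0.333, so the limma p-values rest on the variance borrowed from other rows.

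Most nuclear receptors share a DNA-binding domain of zinc fingers and a ligand-binding domain that recruits coactivators or corepressors. The retinoid X receptors (RXR) are the common partner: the receptors of fatty acids, retinoic acid, thyroid hormone, bile acids, oxysterols and foreign chemicals bind DNA as pairs with RXR. In the gut this family controls fat oxidation, bile acid and drug handling and the identity of the epithelium.

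No nuclear receptor gene passed the screen, whereas 4.91% of the named genes did (4.63% of all rows). The differences were small and mostly to the lower side. In 20 of 27 genes the mean was lower in the MSCT group and in 7 it was higher, where 44.2% of the named genes and 52.0% of all rows were lower. The median difference, MSCT minus control, was -0.20 on the log2 scale, against 0.05 over the named genes and -0.02 over all rows. In 12 genes (44.4%) both MSCT arrays lay below both control arrays, where 20.2% of the named genes did so, and in 2 genes (Pparg and Nr2c1) both lay above, where 27.6% did so. The arrays of the groups overlapped in the other 13 genes. An unadjusted limma p under 0.05 was found for 1 gene that was higher, Pparg (background 6.82% of named genes), and for 1 that was lower, Nr2c2 (background 5.44%). Counts near or below these backgrounds are not a result about the receptors. The smallest p adjusted over all rows was 0.368, for Nr2c2, and the counts by the other tests are given with the genes below. In tissue samples, fewer cells of a type and less RNA per cell cannot be told apart.

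**Figure D1:**
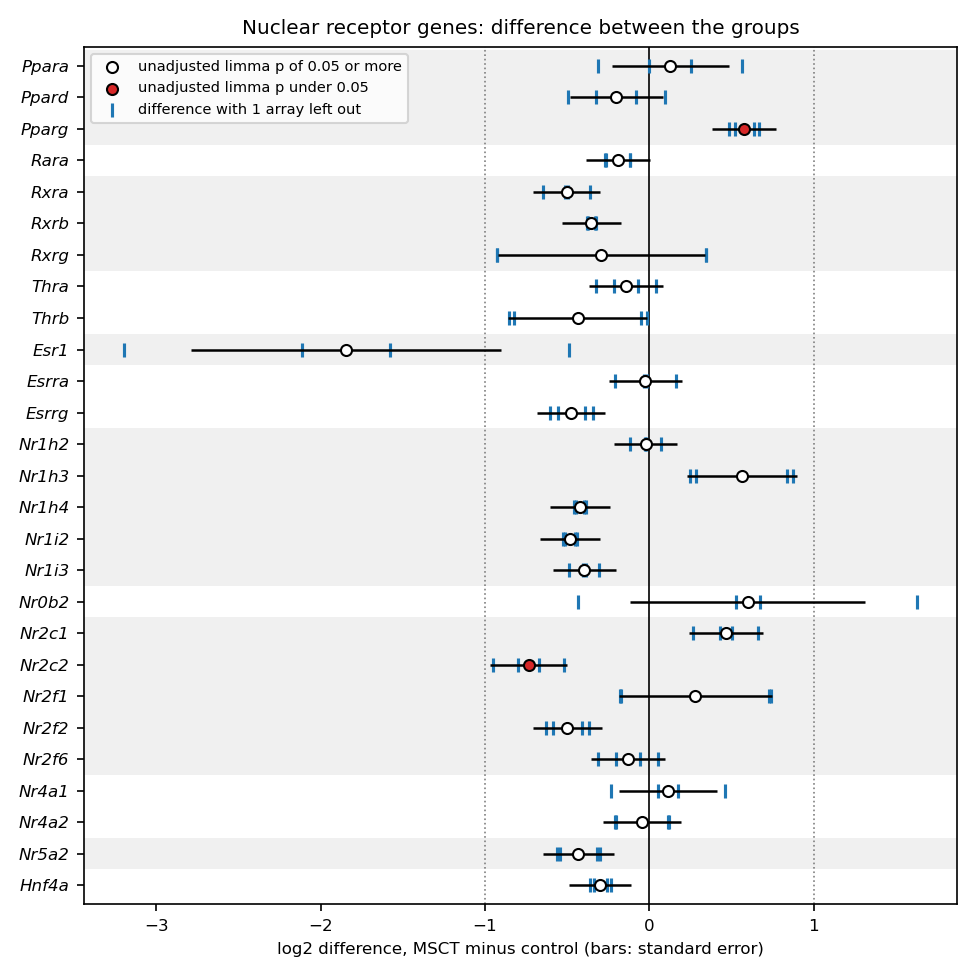
Log2 difference (MSCT minus control) of the 27 measured nuclear receptor genes, grouped by class in shaded bands. Circles give the difference with its standard error as a bar, blue ticks the difference with each of the 4 arrays left out, and dotted lines 2-fold. Only Esr1 lies beyond 2-fold, at -1.84, and its ticks run from -3.20 to -0.49.

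How far apart replicates lay depended on brightness, which varies with the probes as well as with the transcript and sets no order of abundance between genes. Of the 27 genes, 20 were brighter than the median row and 4 belonged to the lowest 25%. The median SD between the control replicates was 0.12 in the 20 brighter genes and 0.65 in the 7 dimmer ones, and between the MSCT replicates it was 0.12 and 0.38. Among the 20 brighter genes 17 were lower in the MSCT group (85.0%, where 43.8% of the named genes of that brightness were lower), and in 10 of them the groups did not overlap on the lower side (background 21.5%). The array medians lay between 848 and 893 over all rows. Of the markers of absorptive epithelium and of smooth muscle, 15 of 20 and 8 of 14 had a value on every array. Control replicate 2 correlated more closely with MSCT replicate 2 (Pearson's r = 0.959 across rows, which are not independent replicates) than with control replicate 1 (r = 0.953). With control replicate 2 left out, 16 of the 27 receptor genes were lower, and with any 1 of the other arrays left out 20 or 21 were.

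**Figure D2:**
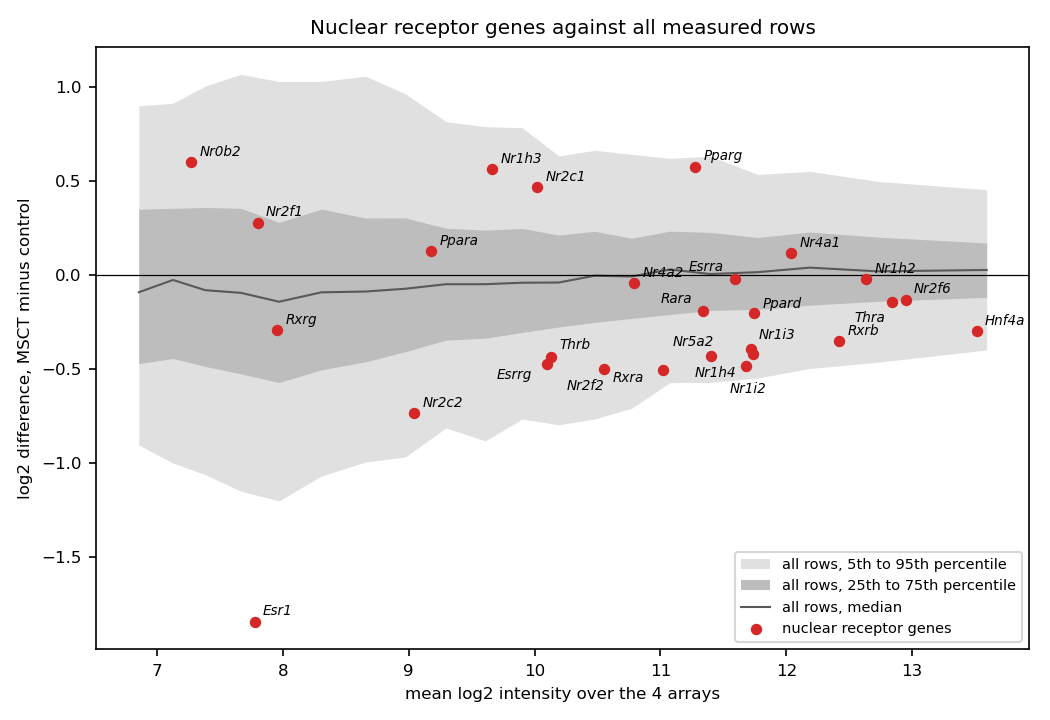
Log2 difference of each nuclear receptor gene (red points) against its mean log2 intensity over the 4 arrays, with the spread of all 18350 rows in bins of brightness (grey bands). Of the 20 genes in the brighter 50% of rows, 17 lie below 0, and Esr1 is far below 0 at low intensity.

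The common partners Rxra and Rxrb and the receptors of bile acids and foreign chemicals were lower on both MSCT arrays, by less than 2-fold. Rxra, a form of RXR prominent in liver and intestine, had an intensity of 2451 and 2486 in the control rats, and 1923 and 1575.5 were measured after MSCT. Its difference was -0.50 on the log2 scale (standard error 0.20, 95% interval from -1.05 to 0.04). Rxrb, a form found in nearly all tissues, was at 6270 and 6089 in the control group and at 4753 and 4929 in the MSCT group, a difference of -0.35 (standard error 0.18). Both genes were lower on each MSCT array than on either control array. Nr1i2 encodes PXR, the sensor of drugs and foreign chemicals, and was at 4004 and 3771 in the control group against 2721 and 2841 in the MSCT group. This was a difference of -0.48 (standard error 0.18, 95% interval from -0.97 to 0.01), and the limma p was 0.0524, or 0.422 adjusted over all rows. Nr1i3, which encodes CAR, the related sensor that is kept in the cytoplasm until activated, was at 3625 and 4115 against 2920 and 2953. Nr1h4 encodes FXR, the bile acid receptor, and was at 3843 and 4046 against 2989 and 2897.5. The differences of Nr1i3 and Nr1h4 were -0.40 and -0.42 (standard errors 0.19 and 0.18). In all 5 genes both MSCT arrays lay below both control arrays, as in 20.2% of the named genes. Overlap was seen in the other RXR gene, Rxrg, and in the oxysterol receptors Nr1h2 and Nr1h3. The change in the 5 genes was between 1.28-fold (Rxrb) and 1.42-fold (Rxra), below the limit of the screen. None passed limma's p of 0.05 with its default variance. The methods name no test for the arrays, and an ordinary t-test, which takes each row's own variance, was run as an alternative. By the t-test the unadjusted p was 0.00897 for Rxrb, 0.0104 for Nr1h4, 0.0119 for Nr1i2, and for Nr1i3 it was just under 0.05. By that test 1 receptor gene was higher and 4 were lower at a p under 0.05, where 6.10% and 4.93% of the named genes were. With an intensity-dependent variance in limma all 5 had an unadjusted p under 0.05. Under that setting 11 of the 27 receptor genes did, 10 of them lower, where 6.91% of the named genes were lower and 10.4% higher at that p. Without the dimmest 25% of rows 6 of 23 receptor genes had such a p (15.8% of the named genes), and without the dimmest 50% it was 9 of 20 (19.8%). Without control replicate 2 it was 3 of 27 (15.9%). No receptor gene passed an adjusted p of 0.05 over all rows in any of the alternatives. The 5 differences kept their sign whichever array was left out, with the narrowest range for Rxrb (-0.38 to -0.33).

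The start regions of these genes differed in base composition, and the 250 bases before the start are shown for 2 of them from the promoter table of RefSeq (build GRCr8), to set the common partner Rxra beside its partner Nr1i2. The windows of Rxrb and Nr1i3 reached into another transcript of the same gene and are not printed. Capitals mark the GC box GGGCGG or its reverse complement CCGCCC.
Rxra, chr3:31387642-31387891, plus strand: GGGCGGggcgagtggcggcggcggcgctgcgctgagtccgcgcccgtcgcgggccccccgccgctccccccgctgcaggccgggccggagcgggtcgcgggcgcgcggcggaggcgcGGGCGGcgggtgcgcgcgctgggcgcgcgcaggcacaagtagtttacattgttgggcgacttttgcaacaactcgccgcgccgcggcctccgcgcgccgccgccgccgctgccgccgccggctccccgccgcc
Nr1i2, chr11:75965467-75965716, plus strand: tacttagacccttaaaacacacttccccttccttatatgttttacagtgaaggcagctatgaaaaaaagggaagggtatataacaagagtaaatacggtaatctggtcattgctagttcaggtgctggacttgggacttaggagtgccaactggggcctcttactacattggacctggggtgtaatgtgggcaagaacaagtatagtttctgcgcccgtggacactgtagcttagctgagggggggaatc
The window of Rxra held 2 matches, with 82.8% G and C, and that of Nr1i2 held none, with 46.0%. Of all 33469 listed windows, 30.5% held a GC box, and of the 30 windows of measured receptor genes 16 did (53.3%). The 30 windows covered 24 of the 27 measured genes, some with several starts, and Nr1h4, Ppard and Nr2f2 had none. The core binding motif of nuclear receptors, AGGTCA or TGACCT, was in neither the window of Rxra nor that of Nr1i2. It was in 2 of the 30 windows (Nr5a2 and 1 of 4 starts of Esrrg) and in 14.1% of all windows. A match is a description of the letters in the window and no evidence of binding.

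**Figure D3:**
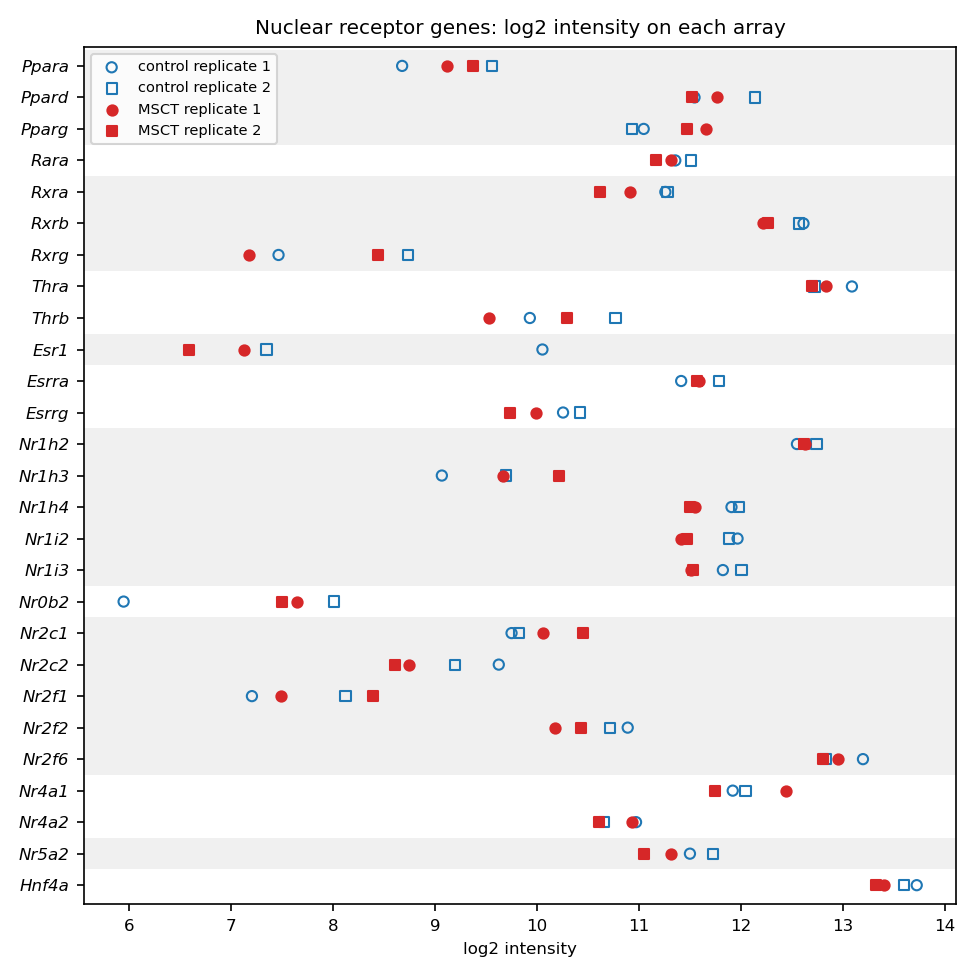
Log2 intensity of each measured nuclear receptor gene on the 4 arrays (open symbols control, filled symbols MSCT, circles replicate 1 and squares replicate 2). In Rxrb, Nr1h4, Nr1i2 and Nr1i3 the pairs of replicates lie close together and apart from the other group, whereas in Rxrg, Thrb and Nr2f1 the replicate number separates the arrays more than the group does.

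The receptors of oxysterols were not lower as those of bile acids were, and this difference between receptors was not tested. Nr1h2 (LXR beta, a broadly expressed sensor of oxidized cholesterol) was at 5998 and 6851 in the control group and at 6326 and 6294 in the MSCT group. Its difference was -0.02 (95% interval from -0.53 to 0.49), and the MSCT arrays lay between the control arrays. Nr1h3 (LXR alpha, prominent in macrophages, liver and gut) was at 536 and 829 against 812 and 1192. Its difference of 0.56 (standard error 0.33, limma adjusted p = 0.558) was smaller than the gap of 0.63 between its control replicates. Nr0b2, which encodes SHP, a receptor without a DNA-binding domain that is induced by FXR and represses other receptors, had an intensity of 61.6 and 257 in the control group, against 201 and 181 after MSCT, so the MSCT arrays lay within the control range.

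Among the 3 receptors of fatty acids only Pparg had an unadjusted limma p under 0.05. Pparg is the master regulator of fat cells and is also strongly expressed in colon epithelium and in macrophages. It was at 2115.5 and 1954 in the control group and at 3231 and 2845 in the MSCT group, and both MSCT arrays were above the control arrays. Its difference was 0.58 on the log2 scale (standard error 0.19, 1.49-fold), with an unadjusted limma p of 0.0362 and an adjusted p of 0.386 over all rows. With single arrays left out the difference lay between 0.48 and 0.67, and its limma p was then above 0.05 each time (up to 0.192). Ppara, which drives fatty acid oxidation in fasting, was at 409 and 753 against 555 and 662, and its difference of 0.13 turned to -0.31 without control replicate 1. Ppard, a broadly expressed form, was at 2989 and 4513.5 against 3478.5 and 2938 (difference -0.20, 95% interval from -0.95 to 0.55). Both of these overlapped between the groups.

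Beside Pparg and Nr1h3, markers of macrophages were higher in the MSCT group. Of 8 measured markers (12 listed) 7 were higher with an unadjusted limma p under 0.05 (6.82% of the named genes), C1qb by 1.61, Cd68 by 1.29, C1qa by 1.28 and Csf1r by 1.00, while Cd14 differed by -0.04. Their summed intensity was 17309 and 18788 in the control group and 24836 and 28798 in the MSCT group. Of the adipocyte markers 1 of 5 measured genes was higher (Cidec, by 0.41) and 4 were lower, where 44.2% of the named genes were lower. Fabp4, which is also a target of Pparg, differed by -0.04. The summed intensity of the adipocyte markers was 7912 and 5113 in the control group and 5223 and 5415 in the MSCT group, so only control replicate 1 stood high. The part of macrophages in the values of Pparg and Nr1h3 was not tested.

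The 2 rows of Thra, the main thyroid hormone receptor of the gut, gave different values. The row with the higher mean, NM_031134, was at 8715 and 6759 in the control group and at 7310 and 6625 in the MSCT group. This was a difference of -0.14 (standard error 0.22), and the groups overlapped. The other, NM_001017960, was at 8095 and 8482 against 5556 and 5594, a difference of -0.57 (standard error 0.18, 1.49-fold). It had an unadjusted limma p of 0.0299 and an adjusted p of 0.366, and both MSCT arrays were below both control arrays. The difference between the rows was not tested. Thra and Nr1d1 lie on opposite strands and overlap by 1061 bases in the gene table, as Thra and Med24 do by 467 bases, and the labeled double-stranded cDNA keeps no strand, so a probe in shared bases could read both genes. The positions of the probes are not in the sources used here. Nr1d1 was higher by 2.50. Other measured receptor genes that overlapped a named and measured coding gene were Nr1i2 (Gsk3b, 2232 bases), Nr1h3 (Acp2, 1400 bases), Nr1i3 (Tomm40l, 1203 bases) and Rxrb (Slc39a7, 2 bases). Thrb, the other thyroid hormone receptor, was at 975.5 and 1746 against 738 and 1260, with a difference of -0.44 that was no larger than the gap of 0.77 between the MSCT replicates. Rara, the retinoic acid receptor of most tissues, differed by only -0.19 (standard error 0.19), although both MSCT arrays (2541 and 2304) lay below both control arrays (2622 and 2912.5).

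Neither receptor of epithelial identity, Hnf4a or Nr5a2, passed limma's p of 0.05 with its default variance. Hnf4a, which holds the program of enterocytes, was at 13540.5 and 12394 in the control group and at 10814 and 10254 in the MSCT group. This was a difference of -0.30 (standard error 0.19), and the groups did not overlap. Nr5a2 (LRH-1, which supports crypt renewal and local steroid synthesis) was at 2897 and 3392 against 2541 and 2125, a difference of -0.43 (standard error 0.21). Their limma adjusted p was 0.575 and 0.505. With the intensity-dependent variance the unadjusted limma p was 0.0426 for Hnf4a and 0.0373 for Nr5a2. Beside these receptors, 5 of 6 goblet cell markers passed the screen as higher (3.13% of the named genes), while Reg4 differed by -0.56 at an unadjusted limma p under 0.05, with a summed intensity of 4737 and 5890 in the control group and of 27188 and 26667 in the MSCT group. Of 15 measured markers of absorptive epithelium 12 were higher, where 55.8% of the named genes were, with a median difference of 0.24. Their summed intensity was 212981 and 219631 in the control group and 249885 and 241816 in the MSCT group. Fabp1 and Fabp2 passed the screen as higher (2 of 15, where 3.13% of the named genes did), while Krt8, Cdh1 and Cdh17 differed by 0.12, -0.03 and 0.00. The part of epithelial cells in the values of Hnf4a and Nr5a2 was not tested.

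Among the orphan receptors the testicular receptors Nr2c2 and Nr2c1 lay on opposite sides of 0. Nr2c2, which competes with other receptors for direct repeat sites, was at 790 and 586 in the control group and at 428 and 391 in the MSCT group. Its difference of -0.73 (standard error 0.24, 1.66-fold) was the largest with an unadjusted limma p under 0.05 (0.0305), and by the ordinary t-test it had a p of 0.0823. Nr2c1, its close relative, was at 861 and 908 against 1065 and 1400, a difference of 0.47 (standard error 0.23, adjusted p = 0.499), with both MSCT arrays above the control arrays. Nr2f2 (COUP-TFII, a receptor of mesenchyme and veins) was at 1898 and 1683 against 1155 and 1384, a difference of -0.50 (standard error 0.21) without overlap. Nr2f6 and Nr2f1 of the same class differed by -0.13 and 0.28 and overlapped. Beside Nr2f2, 6 of 7 mesenchyme markers were higher, with a median of 0.62, where 55.8% of the named genes were higher. Their summed intensity was 55788 and 39944 in the control group and 61686 and 66473 in the MSCT group. Their median log2 intensity was highest on control replicate 1. The 8 smooth muscle markers had a median difference of 0.02, and 4 of 5 endothelial markers were higher. Of 13 markers of enteric neurons and glia 11 were lower (median -0.56, where 44.2% of the named genes were lower), and 5 were lower with an unadjusted limma p under 0.05 (5.44% of the named genes). Their summed intensity was 14394 and 13502 in the control group and 9686 and 10415 in the MSCT group. The part of these cell types in the receptor values was not tested.

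The estrogen-related receptors, which act without estrogen on mitochondrial genes, differed by -0.02 (Esrra) and -0.48 (Esrrg, standard error 0.21). Esrrg was at 1222.5 and 1370 in the control group and at 1019 and 850.5 in the MSCT group, without overlap. Esr1, the classical estrogen receptor, had the largest difference of the list, -1.84, and also the largest spread. It was at 1063 and 163 in the control group, against 139 and 96.2 after MSCT, so only control replicate 1 stood high. The standard error was 0.94, the 95% interval ran from -4.36 to 0.67 and the limma adjusted p was 0.514. With the intensity-dependent variance Esr1 passed the screen, at an unadjusted limma p of 0.0371. Without control replicate 1 the difference was -0.49, and without control replicate 2 it was -3.20. Rxrg, the RXR form of muscle and nerve, was more than 2-fold apart within both groups (177 and 426 against 144 and 348), and no difference was detectable against that spread.

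The NR4A receptors are induced rapidly by stress and calcium signals and have no classical ligand. Nr4a1 was at 3875 and 4226 in the control group and at 5577 and 3441 in the MSCT group, so its difference of 0.11 (95% interval from -0.68 to 0.91) was smaller than the gap between the MSCT arrays. Nr4a2 was at 2008 and 1612 against 1952 and 1559 and differed by -0.05. Of 22 other measured immediate early genes (27 listed) 12 were higher and 10 lower. Past the screen were Fosl1 (1.80) and Dusp1 (-1.33), where 3.13% of the named genes passed as higher and 1.78% as lower. At an unadjusted limma p under 0.05 Fos, Jun, Fosl2 and Ccn1 were also lower and Myc higher. At that p 5 of the 22 were lower and 2 higher, where 5.44% and 6.82% of the named genes were.

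The companions of these receptors were taken from lists of coregulators, ligand-handling enzymes and genes that the receptors are known to regulate, 210 genes outside the receptor list of which 156 were measured. Past the screen were 20 of the 156, where 3.13% of the named genes passed as higher and 1.78% as lower. Among other nuclear receptors Nr1d1 (2.50, standard error 0.23) and Nr1d2 (1.52), the heme receptors of the clock, passed, and the vitamin D receptor Vdr differed by -0.75 at an unadjusted limma p under 0.05. Nr3c1 and Nr3c2, the receptors of glucocorticoids and mineralocorticoids, differed by -0.07 and -0.42. Of 10 measured coregulators (23 listed) none passed the screen. The mean was lower in 8 of the 10, where 44.2% of the named genes were lower, with a median of -0.03. Among these 8, Hdac3, Kat2b, Carm1 and Gps2 differed by only -0.05, -0.01, -0.003 and -0.002. Ppargc1a, the coactivator of mitochondrial programs, differed by -0.64 and Prmt1, a methyltransferase coactivator, by 0.61, each with an unadjusted limma p under 0.05 and an adjusted p of 0.396 and 0.354. The corepressor Ncor1 had no row under its name.

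**Figure D4:**
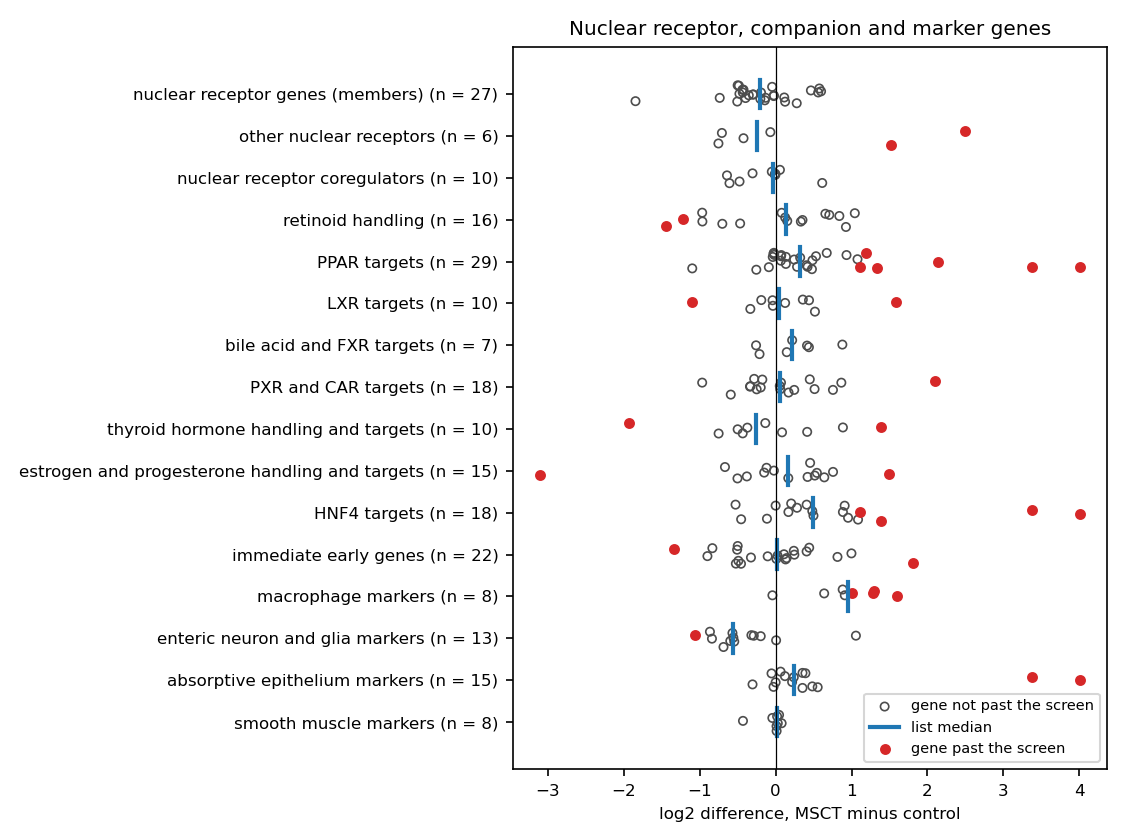
Log2 difference of every measured gene of the receptor list, of the companion lists and of marker lists of cell types (points, with genes past the screen in red and list medians as blue bars). Points are spread vertically only for sight, and a gene may stand in several lists. The receptors lie between -1.84 and 0.60 with none in red, while PPAR targets reach 4.01.

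Genes that PPARs are known to regulate held 6 of 29 measured members past the screen, all higher, where 3.13% of the named genes passed as higher. Their median difference was 0.32. The largest differences were those of the fatty acid binding proteins Fabp1 (4.01) and Fabp2 (3.38), the thioesterase Acot1 (2.14) and the lipase inhibitor Angptl4 (1.33), followed by Pdk4 (1.19), which spares glucose, and Cpt2 (1.11), of the mitochondrial fatty acid import. For Fabp1 the control rats had intensities of 81.2 and 290 and the MSCT rats of 2703 and 2256. Lpl went the other way, by -1.10 without passing. In the HNF4 list 4 of 18 passed, all higher (Fabp1 and Fabp2, shared with the PPAR list, Alpi and Apob), with a median of 0.49. Hnf4a itself differed by -0.30 without passing. Fabp1 and Fabp2 also stand on the list of absorptive epithelium markers, so these lists are not separate. Without the dimmest 50% of rows 1 PPAR target (Cpt2) and no HNF4 target was both tested and past the screen. By the ordinary t-test 4 PPAR targets and 1 HNF4 target passed it.

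Among LXR targets Soat1, which esterifies cholesterol, was higher (1.59, standard error 0.18) and Scd2, a fatty acid desaturase, was lower (-1.10, standard error 0.33), and the other 8 of 10 did not pass. The transporters Abca1 and Abcg1 differed by 0.36 and 0.52. Of 18 genes of the PXR and CAR list only Ces2c, a carboxylesterase, passed (2.10), and the list median was 0.06. The drug-metabolizing Cyp3a9 and Cyp3a62 differed by -0.34 and 0.06 and the pump Abcb1a by 0.76. Of 7 measured bile acid genes none passed, and none had an unadjusted limma p under 0.05. Abcc2, Kng1 and Fetub had standard errors between 0.56 and 1.02, so that changes below 2-fold were not detectable there.

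Enzymes that make or remove ligands gave values in both directions. Of 16 genes of retinoid handling Lrat, which stores retinol as an ester, and Adh4, a retinol dehydrogenase, were lower past the screen (-1.44 and -1.22). Aldh1a1, which makes retinoic acid, differed by -0.97, just under 2-fold. Aldh1a2 and Aldh1a3, which also make retinoic acid, differed by 0.93 and 1.04 and did not pass. Their MSCT arrays lay above the control arrays, as in 27.6% of the named genes. Both were among the dimmest rows, with means at percentiles 3.6 and 5.6 of all rows. Crabp2 and Bco1, which bind retinoic acid and cleave carotene, were higher (0.71 and 0.84), each with an unadjusted limma p under 0.05. Of the thyroid list Dio1, which activates and clears thyroid hormone, was lower (-1.93, standard error 0.32). Its intensity was 2931 and 3109 in the control group and 608 and 1037 in the MSCT group. Alpi, an enterocyte phosphatase raised by thyroid hormone, was higher (1.39). In the list of sex steroids S100g (-3.10) and Igf1 (1.49) passed, and the 7 measured hydroxysteroid dehydrogenases of the Hsd17b family that were listed did not. None of these companion genes passed an adjusted p of 0.05 over all rows by limma (smallest 0.257).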

How the data were processed

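Colon RNA of 2 control and 2 MSCT rats was labeled as double-stranded cDNA and hybridised to one-color NimbleGen arrays. The deposited values are linear intensities, 1 for each transcript on each array; the submitters' processing notes name RMA, and background correction and scaling are not further given in the sources used here. Of 26420 rows, 8070 were blank on all arrays and 18350 were used, without filter, pseudocount or further scaling. Array medians lay between 848 and 893, and precision is limited by having 4 arrays.

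Accessions were named through the RefSeq gene table (GRCr8), which named 7004 of 7292 NM rows and 58 of 11058 XM rows. For a gene with several rows the row with the highest mean was taken. Log2 values were compared with limma 3.58.1 (R 4.3.3) with default settings, and adjusted by Benjamini-Hochberg over all rows. The test was checked on simulated data. Receptors, companion lists and marker lists were chosen with earlier results of these data known, and named genes were the receptors and those of the lists past the screen or at an unadjusted p under 0.05, with others given for comparison and chosen after their values were seen. P-values measure only the spread between these samples.

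Alternatives were quantile normalization, an ordinary t-test, dropping dim rows, medians set equal between arrays, an intensity-dependent robust variance, array weights, a replicate block, the row with the lowest mean, a fold limit of 1.5 and leaving out each array.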

Additional observations from a re-analysis of the deposited data

How the results depend on the processing

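No receptor gene passed an adjusted p of 0.05 in any alternative, and 16 of 27 kept their sign with each array left out. Receptor genes past the screen numbered 0, and 1 with an intensity-dependent robust variance (Esr1), with the replicate block (Esr1) or with a fold limit of 1.5 (Nr2c2), and 0 to 2 with single arrays left out (2, Esr1 and Nr0b2, without control replicate 2). Those with an unadjusted limma p under 0.05 numbered 2, against 5 by the ordinary t-test, 6 of 23 without the dimmest 25% of rows, 9 of 20 without the dimmest 50%, 11 with the intensity-dependent variance and 4 with the replicate block (14.1% of the named genes). The counts were 0 without control replicate 1, MSCT replicate 1 or MSCT replicate 2. The median difference of -0.20 was -0.25 without the dimmest 50% of rows, -0.29 with the row of the lowest mean, and between -0.33 and -0.17 with single arrays left out. Rows past the screen numbered 850, against 388 by the ordinary t-test, 251 without the dimmest 50% and 2019 at a fold limit of 1.5. The range was 934 to 1565 with single arrays left out (1565 without control replicate 2 and 1503 without MSCT replicate 2). Companion genes past the screen numbered 20, against 12, 10 and 34 in the same 3 settings, and 22 to 33 with single arrays left out (33 without control replicate 2). The cause of these shifts was not tested. A group left with 1 array was assumed to vary like the other.

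With equal array medians Esrra was at 0.0145 and Nr1h2 at 0.0155. With single arrays left out the sign turned in 11 genes: Ppara (-0.31 to 0.57), Ppard (-0.50 to 0.10), Rxrg (-0.93 to 0.34), Thra (-0.32 to 0.042), Esrra (-0.21 to 0.16), Nr1h2 (-0.12 to 0.0732), Nr0b2 (-0.43 to 1.63), Nr2f1 (-0.18 to 0.74), Nr2f6 (-0.32 to 0.0523), Nr4a1 (-0.23 to 0.46) and Nr4a2 (-0.21 to 0.12). The labels do not say that replicate numbers pair the rats. Deviations of same-numbered arrays correlated at 0.234 over all rows and at 0.507 over the receptor genes. A replicate block gave 971 rows past the screen, and among receptor genes it brought Esr1 and Nr1h3 to an unadjusted limma p under 0.05, beside Pparg and Nr2c2.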
